A study of Mus musculus with 2 samples.

Results

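The cells described here are the MHC class II high myeloid cells of a testis without RAD21L, a cohesin subunit of meiosis. They were chosen by a rule on measured values: a barcode of the RAD21L KO library with at least 500 detected genes was taken if Cd74, H2-Aa, H2-Ab1 and H2-Eb1 together made up at least 1% of its UMIs (unique molecular identifiers, 1 for each captured transcript). This gave 112 of the 6409 KO barcodes kept (1.75%; 1.44% to 2.10%), out of 12533 barcodes in both libraries before filtering. They were set against the 344 MHC class II low macrophages of the same library (5.37%; 4.83% to 5.95%). These had less than 1% of those UMIs but at least 5 UMIs and 0.3% of UMIs from C1qa, C1qb, C1qc, Pf4, F13a1 and Csf1r. The study profiled whole testes by droplet single-cell RNA sequencing, with 1 library from a RAD21L KO mouse (Rad21l-/-) and 1 from a WT mouse (Rad21l+/+), each aged 55 days. The tissue was dispersed before loading, with no sort for leukocytes named in the labels, and the strain and the allele are not given in the sources used here. All values below compare barcodes within libraries that have no replicate, so no test was run. Ranges in parentheses are exact 95% intervals (Clopper-Pearson for shares, Poisson for levels, conditional binomial for ratios) and cover counting error only.

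MHC class II molecules are pairs of an alpha and a beta chain that show peptides from engulfed material to CD4+ T cells. The invariant chain, made from Cd74, holds the pair until an acidic compartment is reached, where H2-DM helps to load the peptide. Dendritic cells, B cells and a subset of macrophages carry them. In the mouse testis, macrophages that lie around the tubules are known for MHC class II, and those of the interstitium for CSF1R and the mannose receptor with little MHC class II. Transcription of the class II genes depends on CIITA, a coactivator that does not bind DNA itself but joins factors at the X and Y boxes of their promoters.

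The 250 bases before the RefSeq start (GRCm38.p6) of the alpha chain gene H2-Aa, at chr17:34287824-34288073 on the minus strand, and of the beta chain gene H2-Eb1, at chr17:34305617-34305866 on the plus strand, are shown because these are genes the cells were selected on. Both read 5′ to 3′ in the direction of the gene. The capitals mark the letters GNAACT, taken here for the X box of these windows, and GATTGG, taken for the Y box.
H2-Aa: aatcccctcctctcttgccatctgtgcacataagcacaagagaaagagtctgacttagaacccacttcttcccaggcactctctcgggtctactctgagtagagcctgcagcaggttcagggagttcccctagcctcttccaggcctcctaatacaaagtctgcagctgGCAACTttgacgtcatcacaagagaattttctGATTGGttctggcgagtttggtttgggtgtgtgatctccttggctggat
H2-Eb1: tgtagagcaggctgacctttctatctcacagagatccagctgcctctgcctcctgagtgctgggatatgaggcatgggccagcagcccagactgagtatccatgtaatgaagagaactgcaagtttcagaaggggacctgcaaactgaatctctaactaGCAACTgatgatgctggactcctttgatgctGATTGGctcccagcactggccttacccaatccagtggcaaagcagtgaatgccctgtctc
Counted back from the start, the X letters began at position -81 and the Y letters at -49 in H2-Aa, with 26 bases between them. In H2-Eb1 they began at -91 and -60, with 25 bases between. These letters were chosen after the windows had been read. In either direction, GNAACT was in 37.3% and GATTGG in 14.6% of all 32851 promoter windows of this length. GNAACT followed by GATTGG on the same strand, at a distance of 10 to 45 bases, was in 158 of them (0.481%). H2-DMb1 and H2-Eb2 also held the pair, while no window of H2-DMa, H2-DMb2, H2-Oa, H2-Ob, Mgl2 or Il1b did. GATTGG alone, in either direction, was in 1 window each of H2-DMa (of 2), H2-DMb2, H2-Oa and H2-Ob, and in 0 of Mgl2 and Il1b. H2-Ab1 and Ciita had no entry. A match is a description of letters, not a site.

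The KO library had 28001992 UMIs in 7118 barcodes and the WT library 33096309 UMIs in 5415 barcodes, where 5000 to 6000 cells had been aimed for. Of these, 709 KO and 8 WT barcodes had under 500 detected genes. Rad21l stood at 3.96 CPM (UMIs per 1000000) over all KO barcodes (3.26 to 4.77) and 2.48 CPM over all WT barcodes (1.97 to 3.08). So it was not lower in the library labelled KO. How the allele alters the gene is not given, and reads outside the altered stretch check nothing. The libraries shared 14 barcode sequences, 0 of them among the MHC class II high cells.

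The genes of the rule are given first, as a description. MHC class II took a median of 3.50% of UMIs in the 112 selected barcodes, from 1.06% to 6.81%. In the MHC class II low macrophages the median was 0, and 196 of 344 had no UMI of the 4 genes. Each of the 112 barcodes held Cd74, H2-Aa and H2-Ab1, and 108 held H2-Eb1. Cd74 stood at 17779 CPM in MHC class II high barcodes and 361 CPM in MHC class II low macrophages. The H2-Aa level was 7368 and 103 CPM, that of H2-Ab1 6973 and 94.1 CPM, and that of H2-Eb1 3253 and 28.3 CPM. Few barcodes lay near the limit. The 5 just inside had shares of 1.06%, 1.07%, 1.08%, 1.09% and 1.20%, and the 5 just outside 0.972%, 0.832%, 0.762%, 0.736% and 0.735%. Over all 6409 KO barcodes, 5343 had no MHC class II UMI and 898 had under 0.2%. Another 38 lay from 0.2% to under 0.5%, 18 from 0.5% to under 1%, 17 from 1% to under 2% and 95 above.

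Most selected barcodes also passed the macrophage criterion: 95 of 112 (84.8%; 76.8% to 90.9%). The complement genes of the criterion were close in level between the groups and its other genes were not. C1qa, a chain of the complement protein C1q, stood at 2588 CPM in MHC class II high barcodes and 3715 CPM in MHC class II low macrophages. Pf4, a platelet-type chemokine, was at 391 and 1682 CPM, F13a1, a coagulation factor subunit, at 252 and 2224 CPM, and Csf1r, the receptor for the macrophage growth factor CSF1, at 795 and 2053 CPM. F13a1 had a UMI in 11 of 112 and 312 of 344 barcodes. These 6 genes chose the low macrophages, so their difference is also a description.

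**Figure D1:**
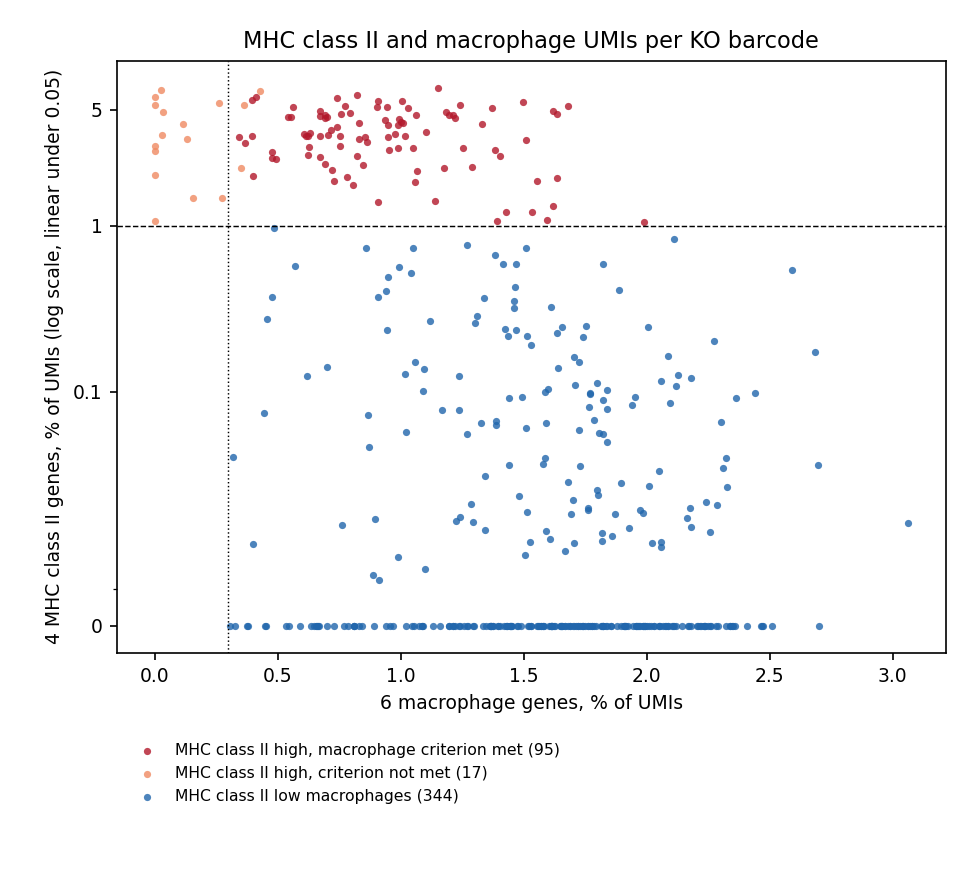
Each point is a KO barcode, with the share of its UMIs from 6 macrophage genes on the x axis and from 4 MHC class II genes on the y axis (log scale, linear under 0.05%). The dashed line is the 1% limit that chose the 112 MHC class II high barcodes and the dotted line the 0.3% macrophage limit, which 95 of them also passed, while 17 did not (some of these lie right of the dotted line with under 5 UMIs of the 6 genes).

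The label of myeloid cells held against markers of other types. The pan-leukocyte list (CD45 and other genes of white blood cells) was carried, with at least 3 UMIs from at least 2 of its genes, by 109 of 112 MHC class II high barcodes, 321 of 344 MHC class II low macrophages and 159 of 5953 other KO barcodes. No selected barcode carried the B cell, the T, NK and innate lymphoid, the neutrophil or the mast cell list. The defining B cell gene Cd79a had 0 UMIs in the 112 barcodes, as did the T cell genes Cd3e and Cd3d, the neutrophil genes S100a8 and S100a9 and the mast cell gene Cpa3. In all, 11 of 13 B cell genes, 15 of 18 T, NK and innate lymphoid genes, 8 of 9 neutrophil genes and 8 of 8 mast cell genes were at 0. Of the monocyte list 7 of 17 genes were at 0, Ly6c2 and Chil3 among them, while Cd14 and Lyz2 were found. Scrublet, a doublet caller, marked 152 of 6409 KO barcodes (2.37%), 0 of the 112 and 15 of the 344 (4.36%).

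RNA of testis cells was present at a low level in both groups. The Sertoli cell list took 0.248% of UMIs in MHC class II high barcodes, 0.227% in MHC class II low macrophages and 0.769% in the other KO barcodes. The Leydig cell list took 0.164%, 0.130% and 0.450%, and the germ cell list 0.0711%, 0.0671% and 0.261%. At least 3 Sertoli-list UMIs from at least 2 genes were found in 95 of 112, 280 of 344 and 5459 of 5953 barcodes (43.9%, 31.7% and 53.9% after thinning each barcode to 1000 UMIs). The median depth of MHC class II high barcodes was 1919.5 UMIs, below 2712.5 in MHC class II low macrophages and 3740 in the other KO barcodes. What free RNA and depth contribute to the differences below was not tested, but for Il1b, Mgl2, Ccl4, Cd52, Ciita, Folr2, Apoe and some lists the share of barcodes is also given after thinning to 1000 UMIs, which left out 5 of 112, 22 of 344 and 999 of 5953 barcodes.

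Across all genes, 7967 had at least 20 UMIs in both groups together and were not among the 10 genes of the rule. Of these, 392 were at least 2-fold higher in MHC class II high barcodes than in MHC class II low macrophages (4.92%) and 1113 were at least 2-fold lower (14.0%). The interval of the ratio lay above 1-fold for 295 of the higher and below it for 712 of the lower genes. The median log2 ratio was -0.21, so genes near that value do not stand apart, and with the median gene taken as no difference the counts were 614 higher and 719 lower. The groups differ about 4-fold in summed UMIs, at 237640 in MHC class II high barcodes and 988249 in MHC class II low macrophages. A gene with 0 UMIs in the first needed 25 in the second to be called lower.

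The rest of the MHC class II machinery followed the rule genes in part. Of 17 listed genes, 9 were compared, 5 were at least 2-fold higher in MHC class II high barcodes and 0 lower, with a median log2 ratio of 1.50. Ciita, the coactivator, had 47 UMIs in 29 of 112 MHC class II high barcodes and 2 UMIs in 2 of 344 MHC class II low macrophages. Its level was 198 CPM (145 to 263) against 2.02 CPM (0.245 to 7.31), a log2 ratio of 6.61 (4.68 to 9.70). In the other 5953 KO barcodes it had a UMI in 10. After thinning the shares with a UMI were 15.0%, 0% and 0.0404%. The 2 chains of H2-DM differed in size: H2-DMb1 stood at 215 and 21.2 CPM (log2 3.34, 2.58 to 4.14), and H2-DMa at 370.3 and 131 CPM (1.50, 1.10 to 1.91). Ifi30, a thiol reductase that unfolds antigens, was at 497 and 170.0 CPM (1.55, 1.19 to 1.89). Cd83, which keeps MHC class II at the surface, was at 888 and 186 CPM (2.25, 1.96 to 2.55). The protease gene Ctss, the costimulator gene Cd86 and Marchf1, a ligase that removes MHC class II from the surface, were within 2-fold, with log2 ratios of 0.23, -0.01 and -0.86. So CD86 transcripts did not separate the groups at this depth (-0.73 to 0.66). MHC class I and its peptide loading genes were also mostly close, with 13 of 16 compared, 2 higher, 0 lower and a median of 0.18. B2m, the light chain of class I, stood at 1649.5 and 1786 CPM.

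Of the 27 lists compared, that of inflammatory cytokines and chemokines, which is also the longest, had the most genes on the higher side. Of 28 genes 21 were compared, 12 were at least 2-fold higher and 4 lower, with a median log2 ratio of 1.20. In the 17 barcodes that missed the macrophage criterion, set alone against the MHC class II low macrophages, the median was 0.12. The lists of MHC class II machinery and of mature dendritic cells had higher medians over all 112 barcodes, at 1.50 and 2.29. Il1b, the precursor of interleukin 1 beta, ranged from 0 to 35 UMIs per MHC class II high barcode with a median of 3, and from 0 to 23 with a median of 0 in MHC class II low macrophages. It had a UMI in 73 of 112 (65.2%), 16 of 344 (4.65%) and, as a background, 24 of 5953 other KO barcodes (0.403%). After thinning these shares were 54.2%, 3.73% and 0.182%. The ranges overlap, since both reach 0, but the typical barcode held Il1b only in the first group. The level was 2584 CPM (2383 to 2796) in MHC class II high barcodes and 75.9 CPM (59.7 to 95.1) in MHC class II low macrophages, a log2 ratio of 5.09 (4.74 to 5.46). Of the 75 UMIs in the 344 barcodes, 76.0% sat in 5 of them.

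Several other chemokines stood on the same side. Ccl4, an attractant of monocytes and T cells, was at 3185 and 245 CPM (log2 3.70, 3.49 to 3.92) and had a UMI in 79 of 112 MHC class II high barcodes and 54 of 344 MHC class II low macrophages (64.5% and 12.1% after thinning). Ccl3 was at 1246 and 382 CPM (1.70) and the neutrophil attractant Cxcl2 at 1953 and 563 CPM (1.80). Cxcl16, Ccrl2 and Nlrp3, which makes the sensor of the inflammasome that cleaves the IL-1 beta precursor, had log2 ratios of 2.18, 2.06 and 1.96. Tnf was at 404 and 369 CPM (0.13, -0.21 to 0.46), so it did not follow Il1b. Other chemokines lay on the opposite side: Ccl24, an eosinophil attractant, had 3 UMIs in the 112 barcodes and 206 in the 344 (log2 -4.05, -6.33 to -2.48), and Ccl8 had 11 and 291 (-2.67). The gene for Ccl2, a monocyte attractant, was within 2-fold (-0.59).

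Mgl2, a C-type lectin (CD301b) of dendritic cells and some macrophages, ranged from 0 to 18 UMIs per MHC class II high barcode with a median of 2, and from 0 to 15 with a median of 0 in MHC class II low macrophages. It had a UMI in 80 of 112 (71.4%), 34 of 344 (9.88%) and 56 of 5953 other KO barcodes (0.941%), and after thinning in 61.7%, 6.21% and 0.262%. The level was 1511 CPM (1358 to 1675) and 124 CPM (103 to 149), a log2 ratio of 3.60 (3.30 to 3.91). Its close relative Clec10a (CD301a) lay on the other side, at 21.0 and 121 CPM (-2.53, -4.18 to -1.27). The 2 genes have similar sequences, and how reads common to both were assigned is not given in the sources used here. Both are on the list of type 2 conventional dendritic cells, which did not separate the groups. Of its 11 genes 4 were compared, with 1 higher, 1 lower and a median log2 ratio of -0.57. It was carried by 61 of 112 MHC class II high barcodes and 193 of 344 MHC class II low macrophages (31.8% and 22.4% after thinning). Among MHC class II high barcodes, 56 held both Il1b and Mgl2, 17 Il1b without Mgl2, 24 Mgl2 without Il1b and 15 neither. Among MHC class II low macrophages the same counts were 7, 9, 27 and 301. Cd52, a small surface glycoprotein of leukocytes, stood at 1456 and 111 CPM (3.71, 3.40 to 4.03), with a UMI in 94 of 112 and 48 of 344 barcodes (72.0% and 8.39% after thinning). Cd14, the coreceptor for lipopolysaccharide, was at 821 and 158 CPM (2.38, 2.07 to 2.69). The pan-leukocyte list had 8 of 8 genes compared, with 3 higher (Cd52, Coro1a and Cytip), 0 lower and a median of 0.35, and took 0.576% of UMIs in MHC class II high barcodes and 0.441% in MHC class II low macrophages. Close in level were Laptm5 at 1086 and 1076 CPM (0.01) and Tyrobp at 1313 and 1435 CPM (-0.13).

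**Figure D2:**
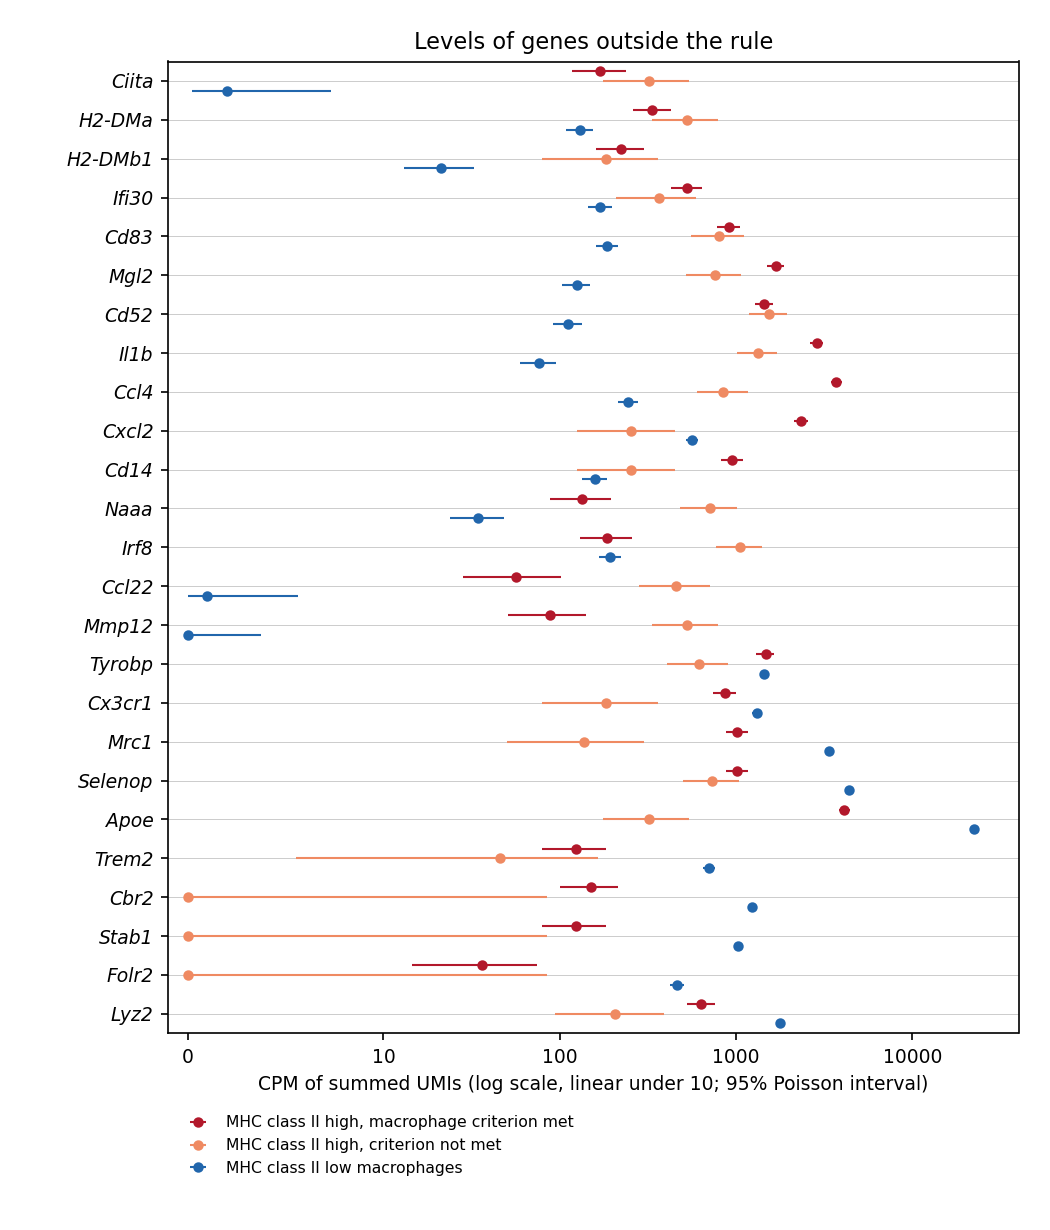
The level of each gene, as CPM of summed UMIs on a log axis (linear under 10) with exact 95% Poisson intervals, is shown for 95 MHC class II high barcodes that met the macrophage criterion, 17 that did not, and 344 MHC class II low macrophages. Il1b, Mgl2, Cd52 and Ccl4 were higher in both sets of MHC class II high barcodes than in the MHC class II low macrophages, while Apoe, Mrc1, Cbr2, Stab1 and Folr2 were lower in both.

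Genes of resident tissue macrophages were lower. Of 19 listed genes 18 were compared, 0 were at least 2-fold higher and 13 were lower, with a median log2 ratio of -2.35. Apoe, a carrier of lipids, had from 0 to 154 UMIs with a median of 0 in MHC class II high barcodes, and from 0 to 276 with a median of 58 in MHC class II low macrophages. It stood at 3413 CPM (3182 to 3656) and 22271 CPM (21977 to 22567), a log2 ratio of -2.71 (-2.81 to -2.60). A UMI was found in 46 of 112 (41.1%) and 334 of 344 barcodes (97.1%), and in 52.2% of the other KO barcodes. After thinning the shares were 31.8%, 96.6% and 34.8%, so the share in MHC class II high barcodes was not above that in other KO cells. Its UMIs there were unevenly spread, with 57.1% of them in 5 barcodes. These 5 held 154, 128, 74, 54 and 53 Apoe UMIs, with 2, 5, 0, 0 and 0 Il1b UMIs in the same order. Of the 112, 26 held both Apoe and Il1b, 20 Apoe without Il1b, 47 Il1b without Apoe and 19 neither. Among the 344 the same counts were 10, 324, 6 and 4.

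The folate receptor gene Folr2 had 7 UMIs in 4 of 112 MHC class II high barcodes and 459 UMIs in 182 of 344 MHC class II low macrophages (29.5 and 464 CPM, log2 -3.98, -5.30 to -2.92). After thinning, 1.87% and 30.7% of barcodes held it. Cbr2, a carbonyl reductase, was at 122 and 1237 CPM (-3.34), and the mannose receptor gene Mrc1 at 854 and 3374 CPM (-1.98). Both are known from interstitial-type macrophages of several tissues. Trem2, a lipid-sensing receptor, was at 109 and 701 CPM (-2.68), and the genes of the transcription factor MAF and the engulfment receptor MERTK each had a log2 ratio of -2.36. Vsig4, a complement receptor, had 0 UMIs in MHC class II high barcodes and 72 in MHC class II low macrophages, which is 5.77-fold lower with 3 UMIs set for the 0. By contrast, Cx3cr1 and Adgre1 (F4/80), also of this list, were within 2-fold at -0.83 and -0.88. Lyz2, a lysozyme of the monocyte list, was at 555 and 1783 CPM (-1.68).

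Receptors for uptake were on the lower side as well. In the scavenger, efferocytosis and complement list, 16 of 18 genes were compared, with 1 higher and 7 lower and a median of -0.96. Stab1, an endocytic receptor, stood at 101 and 1032 CPM (-3.35, -4.00 to -2.77), and the lysosomal protease gene Lgmn at 370.3 and 1300.3 CPM (-1.81). The C-type lectin and pattern receptor list had 13 of 16 compared, 1 higher and 6 lower, with a median of -0.86. Its higher gene was Clec7a (dectin-1, a receptor for beta-glucans) at 181 and 43.5 CPM (2.06, 1.41 to 2.70), and among its lower genes was the RNA sensor Tlr7 at 21.0 and 127 CPM (-2.60). Growth factor and cytokine receptors did not lean to a side, with 14 of 15 compared, 1 higher, 3 lower and a median of -0.04, which turned positive once the median gene was taken as no difference. The higher one was Csf2ra, the alpha chain of the GM-CSF receptor, at 299 and 135 CPM (1.15, 0.71 to 1.58).

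The remaining lists stood closer to no difference. Of the interferon response list, 10 of 15 genes were compared, with 3 higher, 1 lower and a median of 0.43. Its higher genes rested on few UMIs: Isg15 and Ifit1 each had 13 UMIs in 5 of 112 barcodes and 7 UMIs in the 344. Of 16 immediate early and stress genes 1 was higher and 3 lower, with a median of 0.14. Within it Junb stood at 4305 and 2175 CPM (0.99), Zfp36, which destabilises cytokine transcripts, at 2070.4 and 986 CPM (1.07), and Jun at 2045 and 4360.2 CPM (-1.09). The cell division list had 4 of 10 genes compared and 0 past 2-fold, with a median of -0.28. It was carried by 3 of 112 and 17 of 344 barcodes. The Sertoli and germ cell lists had 0 genes past 2-fold among 8 and 10 compared, and the Leydig cell list 0 higher and 1 lower among 7. Of the stromal cell list 4 of 7 genes were compared, with 1 higher (Dcn), 0 lower and a median of 0.27. Dcn had 37 UMIs in the 112 barcodes, 20 of them in 1 barcode and 10 in another. The stromal list took up to 1.00% of the UMIs of a selected barcode.

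**Figure D3:**
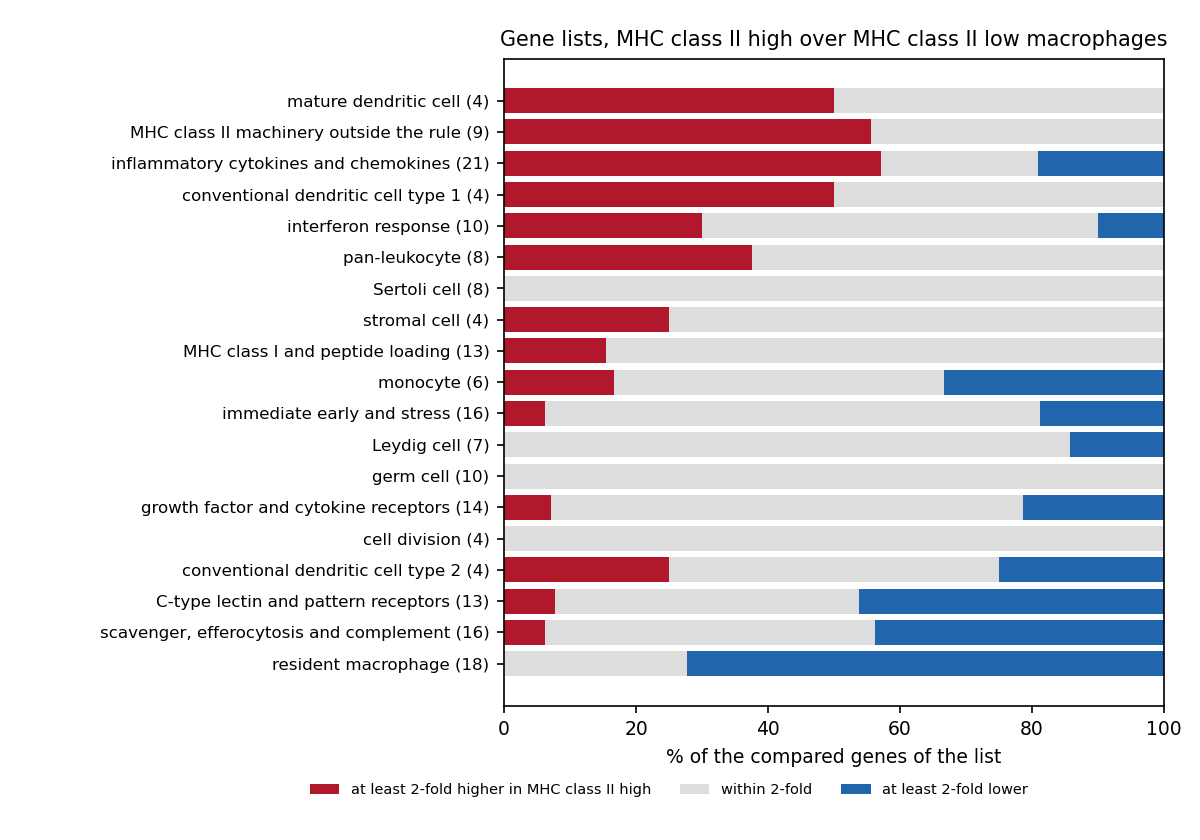
For each list with at least 3 compared genes (their number in brackets), bars show the percentage of compared genes that were at least 2-fold higher in MHC class II high barcodes, within 2-fold, or at least 2-fold lower, against MHC class II low macrophages. Lists run from the highest median log2 ratio at the top to the lowest at the bottom, where 13 of 18 resident macrophage genes were lower. Over all 7967 genes 4.92% were higher and 14.0% lower.

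Genes with the largest ratios, named by a rule on UMIs and on room for free RNA, include 12 in each direction. On the higher side with Ciita and Il1b were Mmp12, Ccl22, Ptgs2, Cd72, Zmynd15, Runx3, Plbd1, Gpr132, Glipr1 and Spn. Ptgs2 (cyclooxygenase-2, for prostaglandin synthesis) had 51 UMIs in 20 of 112 MHC class II high barcodes and 6 UMIs in 2 of 344 MHC class II low macrophages (log2 5.14, 3.92 to 6.66). Plbd1, a phospholipase B-like gene, was spread more widely, with 83 UMIs in 50 of 112 barcodes and 17 in 15 of 344 (4.34, 3.58 to 5.19). Cd72, an inhibitory C-type lectin, had 37 UMIs in 27 barcodes and 5 in 5 (4.94), and Runx3, a transcription factor, 38 in 26 and 7 in 7 (4.50). Mmp12, a macrophage elastase, and Ccl22, a ligand of CCR4, came from few barcodes. Mmp12 had 40 UMIs in 9 MHC class II high barcodes, 17 of them in 1 barcode, and 0 UMIs in MHC class II low macrophages. That is 55.4-fold higher with 3 UMIs set for the 0. Ccl22 had 31 UMIs in 5 barcodes, 20 of them in 1, and 1 UMI in MHC class II low macrophages (7.01, 4.43 to 12.36).

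On the lower side with Ccl24, Folr2, Stab1, Cbr2 and Cd163 were Slc40a1, Iigp1, Ltc4s, Alox5, Fcrls, Hmox1 and Ddx60. Iron handling was represented by 3 of them. Slc40a1 (ferroportin, the iron exporter) had 2 UMIs in the 112 barcodes and 308 in the 344 (log2 -5.21, -8.26 to -3.35). Hmox1 (heme oxygenase 1) had 6 and 236 (-3.24, -4.70 to -2.10), and Cd163, the receptor for haptoglobin-bound haemoglobin, 2 and 118 (-3.83, -6.89 to -1.94). Another 2 belong to leukotriene synthesis: Alox5 (5-lipoxygenase) had 3 and 124 UMIs (-3.31) and Ltc4s (leukotriene C4 synthase) 4 and 177 (-3.41). These groupings were made after the values were seen. Of the genes named here as lower, Cd163, Alox5, Ccl24 and Iigp1 were within 2-fold when barcodes that carry a germ or testis somatic list were left out, which left 16 MHC class II high and 50 MHC class II low barcodes. With 3 UMIs set for any lower count, their log2 ratios were then -0.69, -0.77, -0.98 and -0.61.

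Along the MHC class II share, the summed levels of genes outside the rule differed in steps. The 439 barcodes that met the macrophage criterion were sorted into 6 classes by that share, from no MHC class II UMI up to at least 5%. From low to high they held 196, 109, 39, 34, 45 and 16 barcodes, and the last is thinly filled. Il1b stood at 19.7, 103, 321, 2312, 3360 and 2758 CPM. Its levels in the classes under 1% come from 11, 35 and 29 UMIs, 76.0% of them in 5 barcodes. Mgl2 was at 53.6, 85.6, 709, 1601, 1551 and 2225 CPM, so the 39 barcodes just under the limit (0.2% to under 1%) lay between those below and above. Apoe ran the other way, at 21728, 24625, 16791, 7251, 2584 and 1160 CPM, and here too the same 39 barcodes lay in between. Its levels in the classes at or above 1% come from few barcodes. There the median barcode had 0 Apoe UMIs, and 5 barcodes held 58.1% of them. In the class from 3% to under 5%, 1 barcode held 154 of the 230 Apoe UMIs, so the order of the highest 2 classes depends on that barcode. Cbr2 stood at 1318, 1219, 798, 274, 101 and 0 CPM, and Mrc1 at 3480, 3389, 2660.0, 1601, 618 and 784 CPM. C1qa, which helped to choose these barcodes, stayed between 2978 and 3894 CPM, and Cx3cr1 stood at 1355 CPM in the lowest class and at 708 and 721 CPM in the highest 2. Median depth was 2672, 3031, 2300.0, 1957.5, 1896 and 1926 UMIs, so it was also lower at the upper end, and its part in the steps was not tested.

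**Figure D4:**
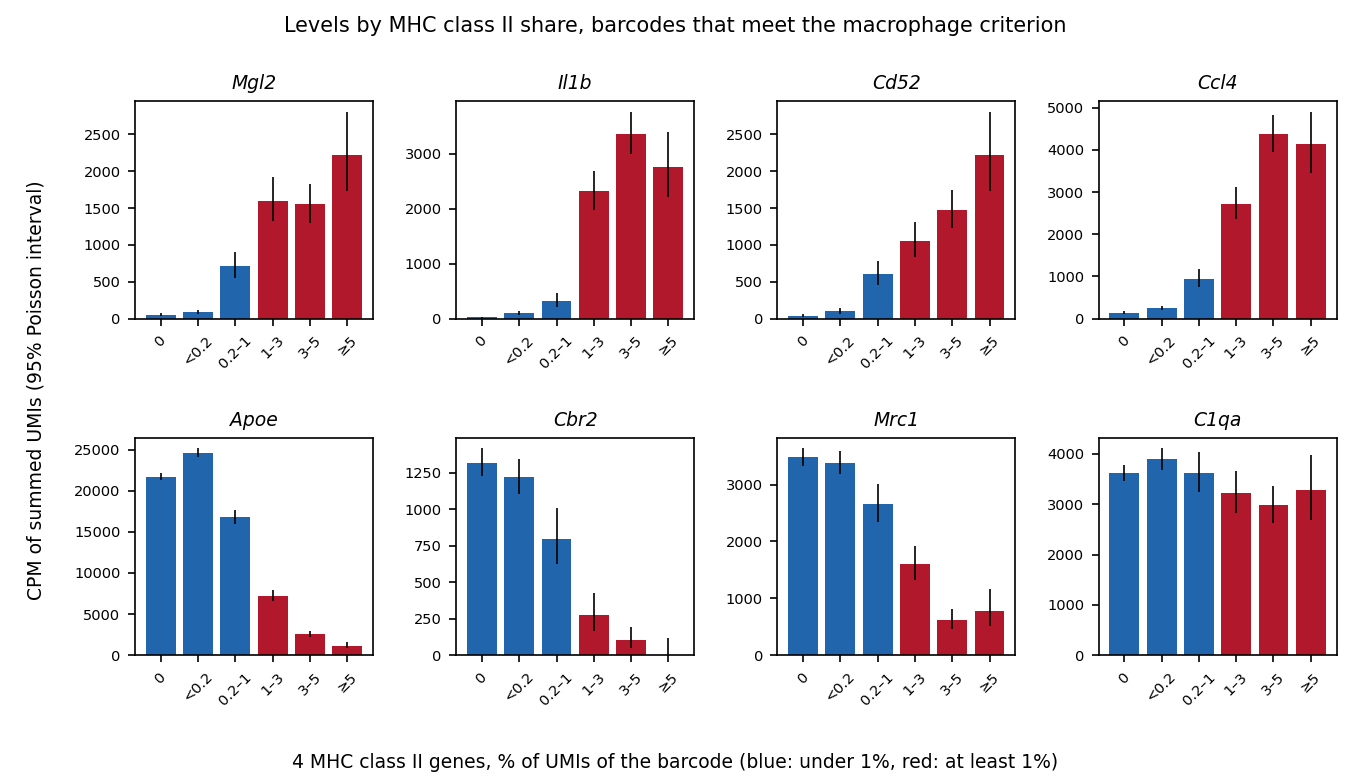
Bars give CPM of summed UMIs with exact 95% Poisson intervals for 6 classes of MHC class II share, all of barcodes that met the macrophage criterion, from none at the left to at least 5% at the right (blue under 1%, red at least 1%). Mgl2, Il1b, Cd52 and Ccl4 were higher and Apoe, Cbr2 and Mrc1 lower in the classes at or above 1%, and C1qa differed little.

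The 112 barcodes were not uniform. The 17 that missed the macrophage criterion had MHC class II levels like those of the other 95, with Cd74 at 17851 CPM in the 95 and 17459 CPM in the 17, and a median depth of 1910 UMIs in the 95 and 2159 UMIs in the 17. Since the 17 were set apart by their macrophage genes, the low level of those genes is no finding: 6 had 0 UMIs of the 6 genes, 4 had 1 and 7 had 2 to 5. Among genes outside the criterion, those higher in the 95 by the rule for named genes were Apoe, Ccl2, Cxcl2, Slc15a3, Ccl12, Mrc1, Tnf and Ehd4. Cxcl2 stood at 2335 CPM in the 95 and 252 CPM in the 17, Tnf at 479 CPM in the 95 and 68.7 CPM in the 17, and Ccl2 at 649 CPM in the 95 and 22.9 CPM in the 17. Il1b (2866 CPM in the 95 and 1329 CPM in the 17) and Mgl2 (1680.5 and 756 CPM) differed less, with log2 ratios of 1.11 (0.72 to 1.52) and 1.15 (0.63 to 1.72). Cd52, at 1438 CPM in the 95 and 1535 CPM in the 17 (-0.09, -0.48 to 0.31), was close in both.

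Among the 17, dendritic cell genes were found in some. The list of type 1 conventional dendritic cells, which take up dead cells and present to CD8+ T cells, was carried by 17 of 112 MHC class II high barcodes (9 of the 95 and 8 of the 17), 24 of 344 MHC class II low macrophages and 566 of 5953 other KO barcodes. After thinning the shares were 7.48%, 0% and 0.222%. Xcr1, a chemokine receptor, or Clec9a, a receptor for dead cells, both defining genes of this type, had a UMI in 5 of 112 MHC class II high barcodes, all 5 among the 17, in 0 of 344 MHC class II low macrophages and in 22 of 5953 other KO barcodes. In 3 of the 5 both genes were found. Irf8, the factor this type depends on, stood at 186 CPM in the 95 and 1054 CPM in the 17. Of its 46 UMIs in the 17, single barcodes held 15, 10, 7, 6 and 4. The barcode with 15 is the one with Leydig cell RNA described below. Of 31 Naaa UMIs in the 17, the barcodes with 15, 10 and 7 Irf8 UMIs held 5, 9 and 6. Levels over the 17 thus describe few of them for these 2 genes. Naaa, an acid amidase, was at 134 CPM in the 95 and 710.3 CPM in the 17, and Wdfy4, needed for cross-presentation, at 25.8 CPM in the 95 and 298 CPM in the 17. Itgae, of the same list, had 0 UMIs in the 95 and 6 in the 17. Not all of the list went this way. Cadm1 was at 149 CPM in the 95 and 68.7 CPM in the 17, and Batf3 had 6 and 0 UMIs. Tlr3 had 3 UMIs in the 95 and 1 in the 17, and Snx22 had 0 in the 112. Over all 112, Irf8 was at 345 CPM, against 193 CPM in MHC class II low macrophages (log2 0.84).

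The deepest of these 5 barcodes, with 9858 UMIs and an MHC class II share of 1.07%, also carried Leydig cell RNA. It held 309 of the 314 Lcn2 UMIs of the 17, 105 of 112 of Cyp17a1 and 34 of 35 of Star (Cyp17a1 and Star are needed for steroid synthesis), and the Leydig cell list took 2.37% of its UMIs. The genes named as higher in the 17 (Lcn2, Cyp17a1, Ptgds, Star, Bhmt, Fdx1, Insl3 and Tmsb10) come mostly from it. Tmsb10, an actin-binding protein gene, does not: it had 71 UMIs in 10 of the 17 barcodes, at most 18 in 1, at 201 CPM in the 95 and 1627 CPM in the 17. Without that barcode 393 genes were at least 2-fold higher and 1092 lower than in MHC class II low macrophages, against 392 and 1113 with it. Scrublet did not mark it.

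Some genes of the mature dendritic cell list were found together in 1 other barcode of the 17. It had 4199 UMIs, an MHC class II share of 6.62% and 1 UMI of the 6 macrophage genes. It held all 4 Ccr7 UMIs of the 112 barcodes (CCR7 guides mature dendritic cells to lymph nodes), 20 Ccl22, 17 Mmp12, 14 Mgl2 and 15 Il1b UMIs. Ccl17, like Ccl22 a CCR4 ligand, had 20 UMIs in 2 of 112 MHC class II high barcodes and 0 in MHC class II low macrophages, 27.7-fold higher with 3 UMIs set for the 0. Of the mature dendritic cell list 4 of 12 genes were compared and 2, Ccl22 and Ccl17, were at least 2-fold higher, so its median of 2.29 rests on these few barcodes. Most other genes of the list were absent or scarce. Fscn1, Socs2 and Nudt17 had 0 UMIs in the 17, and Cacnb3, Il4i1 and Apol7c had 0 in the 112. Relb, Tmem123 and Cd200 had 3, 2 and 2 UMIs in the 17. Barcodes with so few UMIs of a type do not give its frequency.

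The study compared the testis labelled KO with that of a WT mouse, in which the same rule found 8 of 5407 barcodes kept (0.148%; 0.0639% to 0.291%), against 112 of 6409 in KO (1.75%; 1.44% to 2.10%). Of the 8 WT barcodes 6 met the macrophage criterion (75.0%; 34.9% to 96.8%), against 95 of 112 in KO. No WT barcode was an MHC class II low macrophage, and the exact interval of 0 of 5407 reaches up to 0.0682%, against 5.37% in KO (the limit set by 3 barcodes is 0.0555%). MHC class II high barcodes were therefore 112 of 456 in KO (24.6%; 20.7% to 28.8%) and 8 of 8 in WT (63.1% to 100%) of both kinds together. Median depth over kept barcodes was 3448 UMIs in KO and 2228 in WT. Shares of all kept barcodes depend on how many cells of other types were captured, and with 1 mouse of each genotype the genotype, the animal and the preparation cannot be told apart.

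Levels in the 8 WT barcodes rest on 15288 UMIs. Cd74 stood at 17779 CPM in KO and 16549 CPM in WT, and H2-Ab1 at 6973 and 6934 CPM. Among genes outside the rule, Il1b was at 2584 CPM in KO and 654 CPM in WT (10 UMIs, log2 1.98, 1.09 to 3.05), and Mgl2 at 1511 and 327 CPM (5 UMIs, 2.21, 0.97 to 3.84). Apoe had 811 UMIs in KO and 0 in WT, 17.4-fold higher in KO with 3 UMIs set for the 0 (the interval starts at 14.1-fold). The median of the 112 KO barcodes was also 0 Apoe UMIs, and 57.1% of these UMIs sat in 5 barcodes. Ccl4 was at 3185 and 3990.1 CPM, with an interval that included no difference (-0.32, -0.70 to 0.08). Tnf was lower in KO, at 404 and 1112 CPM (-1.46, -2.21 to -0.62), as was Ifit2, an interferon-induced gene, with 9 UMIs in 112 KO and 12 in 8 WT barcodes (-4.37, -5.80 to -3.00). So few WT barcodes describe these cells only.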

How the data were processed

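Whole testes of 1 RAD21L KO and 1 WT mouse were profiled with 10x Chromium droplets and a NovaSeq 6000 (labels' protocols). Values are UMI counts, not normalized, as the authors deposited them after Cell Ranger 6.1.2, which the file headers name. Seurat 4.3 and the build GRCm39 are named, per the submitters' processing notes. Annotation and cell calling are not given in the sources used here. The deposited barcode and feature lists name 41459 genes by symbol.

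Barcodes with at least 500 detected genes were kept. UMIs were summed per group and scaled to CPM. Genes with at least 20 UMIs in both groups together were compared, without the 10 genes of the rule, and a 2-fold ratio was the call, with counts under 3 set to 3 for calls, ranks and list medians. Single-gene ratios use the counts as they are. There is no replicate, so no p-value was computed. Genes were named by list and, outside lists, as the first 12 per direction (8 within the MHC class II high barcodes) with at least 30 UMIs in the higher group and a 2-fold ratio left after subtracting 10% of its CPM in the kept KO barcodes pooled. Of 29 lists, all 349 genes were found. Names were left out for predicted, mitochondrial, ribosomal protein and haemoglobin genes. Doublets were marked, and kept, with Scrublet in Scanpy 1.11.5 at an expected rate of 5%. Python 3.11.15, NumPy 2.4.6, SciPy 1.17.1 and pandas 2.3.3 were used, and the comparison was tested on simulated data. The cells and lists were chosen with earlier results of these data known. Promoter windows come from RefSeq tables of GRCm38.p6 and were matched by symbol. Another 18 alternatives were planned and 3 were added after the data were seen.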

Additional observations from a re-analysis of the deposited data

How the results depend on the processing

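With at least 1000 detected genes, 65 of the 112 MHC class II high barcodes were left. Leaving out barcodes that carry a germ or testis somatic list left 16, since 95 of 112 carried the Sertoli cell list, and 105 genes at least 2-fold higher than in MHC class II low macrophages and 265 lower, against 392 and 1113. A limit of 1% on Leydig or Sertoli list UMIs, chosen after seeing the data, left 111 barcodes, with 400 higher and 1079 lower. Thinning to 1000 UMIs gave 214 and 708, and the 17 barcodes that miss the macrophage criterion alone gave 2593 and 344. Counts under 3 were set to 3, and in the 17 barcodes 3 UMIs equal 68.7 CPM. A gene with 0 UMIs there can thus be called higher, so 2593 is not a count of genes found at a higher level. A minimum of 5 UMIs per gene gave 2009 higher, one of 50 UMIs 151 higher and 642 lower, and the median gene set to no difference 614 and 719. At the minimum of 5 UMIs, too, a gene with 0 UMIs in MHC class II high barcodes can be called higher, because 3 are set for the 0. Limits of 0.5% and 2% gave 130 and 95 barcodes, and a share counted without Cd74 gave 90. Of 25 named genes past 2-fold outside the rule, all 25 kept their sign and 21 stayed past 2-fold under every alternative. Apart from Mgl2, these genes were named for the largest ratios in these same data, so a kept sign was likely beforehand. Without barcodes that carry a germ or testis somatic list, Cd163 (-0.69), Alox5 (-0.77), Ccl24 (-0.98) and Iigp1 (-0.61) were within 2-fold, where counts under 3 are set to 3 and few barcodes remain. Il1b had log2 ratios from 4.13 to 5.98, Mgl2 from 2.60 to 4.10 and Folr2 from -4.37 to -2.59. The 5 list medians past 2-fold kept their sign, but only 2 stayed past 2-fold under every alternative that gave a value: resident macrophages (-2.70 to -1.94) and MHC class II machinery (1.03 to 1.71). That of inflammatory cytokines and chemokines ran from 0.12 to 1.47, mature dendritic cells from 0.11 to 2.56 and dendritic cells of type 1 from 0.41 to 2.87. The lowest values of the first and second of these came from the 17 barcodes alone, and that of the last from the other 95. No paired analysis was possible because there is 1 library per genotype and both groups of barcodes come from the same one. Depth limits the lower calls, since a gene at 0 UMIs in MHC class II high barcodes needs 25 in MHC class II low macrophages.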

Other observations

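H2-Ea, the alpha chain partner of H2-Eb1, is known to be silent in mouse strains of the b haplotype. It was looked at after its values were seen and is on no list. It had 26 UMIs in 22 of 112 MHC class II high barcodes and 2 UMIs in 2 of 344 MHC class II low macrophages (109 and 2.02 CPM, log2 5.76, 3.76 to 8.88), with a UMI in 4 of 5953 other KO barcodes. In the 8 WT barcodes found by the same rule it had 1 UMI. H2-Oa and H2-Ob, whose products restrain H2-DM in B cells and some dendritic cells, had 7 and 6 UMIs in the MHC class II high barcodes. Of these, 5 each were in the 17 barcodes that miss the macrophage criterion. Ccr2, the receptor of monocytes for CCL2, had 11 UMIs in the 112 barcodes, 7 of them in the same 17 (20.6 CPM in the 95 and 160.4 CPM in the 17), and Il1r2, a decoy receptor for interleukin 1, had 11 UMIs of which 7 were in the 17.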
